A study of Homo sapiens with 4 samples.

Results

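Potassium channel genes were the subject of this description, and they were taken as every row of the deposited gene table whose symbol is KCN followed by letters and a closing number, which left antisense and intronic transcripts out. The rule found 95 of the 28278 genes listed. HepG2, the cell line named by the labels, derives from a human liver cancer. Both groups carried Cas9 and a lentiviral sgRNA and were treated with Sorafenib, a multikinase inhibitor, at 10 µM for 24 h. They differed in the sgRNA, which was a control sgRNA in 2 libraries and 1 sgRNA against *USP22*, the gene of a histone H2B deubiquitinase, in the other 2. The cells were selected populations and not single clones, no library without Sorafenib was analysed here, and nothing states whether replicates came from separate cultures, so that p-values measure the spread between these libraries only.

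Potassium channels let potassium ions leave or enter a cell along their electrochemical gradient, which sets the resting membrane potential and takes part in volume control, secretion and proliferation. Voltage-gated pore subunits open when the membrane depolarises, calcium- or sodium-activated ones open on a rise of the ion in the cytosol, inward rectifiers pass current best near the resting potential, and two-pore-domain channels carry a background leak. Auxiliary subunits form no pore but change the traffic or gating of the pore subunits. Some pore subunits, called silent, give no current alone and act in joint channels with other pore subunits, such as the one that *KCNB2* encodes.

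Library totals ranged from 62030307 to 64728272 counts. The targeted gene did not check the labels by its level, since *USP22* was counted 16450 and 16537 times in control and 20279 and 20368 times in the libraries labelled sgUSP22. This was 1.17-fold higher (edgeR adjusted p = 0.000394). The paper reports that loss of USP22 was checked on the protein by Western blot, which RNA counts do not measure. All directions given here follow the labels. The cell line name does so too, and the hepatocyte marker levels given next did not check it. Of 19 hepatocyte markers, 9 were listed at 0 in all 4 libraries, with *ALB* and *APOA1* among them. Only 2, *FOXA1* and *CEBPA*, were tested. The summed level of the list lay between 19.4 and 22.5 CPM, which are counts scaled to a common library size with TMM factors. Most of it was *FOXA1*, with means of 16.2 CPM in control and 11.8 CPM in sgUSP22 libraries, and *CEBPA*, with 5.87 and 7.36 CPM. Among the others, *AFP* had at most 4 counts in any library, *HNF4A* at most 9, *TF* at most 13 and *APOA2* at most 19. The epithelial keratin genes *KRT8* and *KRT18* were abundant, with at least 38104 counts each in every library. Some of 9 genes typical of fibroblasts were also present, and their summed level was 654 and 658 CPM in control and 907 and 908 CPM in sgUSP22 libraries. Most of this was *COL3A1*, with a mean of 503 CPM in control and 573 CPM in sgUSP22 libraries. *PDGFRA* was listed at 0 in all libraries, *COL1A2* had at most 7 counts and *THY1* at most 31. Of 7 such genes tested, 2 were called higher (*DCN* and *LUM*) and 2 lower (*ACTA2* and *PDGFRB*), and their part in the results below was not tested. Of 13 neuronal markers 6 were listed at 0, and 0 of the 6 tested were called. Their summed level was 29.9 and 30.4 CPM in control and 31.8 and 33.5 CPM in sgUSP22 libraries. By adjusted p alone, *MAP2* was higher (log2 fold change 0.52, edgeR adjusted p = 0.00205) and *TUBB3* lower (-0.42, edgeR adjusted p = 0.0169). The 6 leukocyte markers summed to 73.8 and 74.1 CPM in control and 44.1 and 47.0 CPM in sgUSP22 libraries, with *CD68* called lower and *LYZ* and *CD3E* among those listed at 0. In bulk RNA, fewer cells of a type and less RNA per cell cannot be told apart.

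Of the 95 members, 35 were listed at 0 in all 4 libraries, or 36.8%, close to the 32.7% of all genes in the table. Another 23 had counts of at most 17 in any library and did not pass the filter on low counts. StringTie derives counts from coverage, so that a 0 means that the gene is listed at 0. Were each count 1 independent read, such a 0 would still permit 3 counts, equal to 0.0456 to 0.0492 CPM depending on the library. Counts from coverage need not step in single reads. The values above 0 of *KCNS1*, *KCNS2* and *KCNN3* were all 4, so that the true limit may be higher. The 37 members that passed, or 38.9% where 53.6% of all genes did, were tested, and 19 of them had a mean of at least 1 CPM in both groups. All 8 members of the KCNA subfamily, the Shaker-type channels, were listed at 0, as was *KCNB2*. Of the 40 voltage-gated pore subunits 15 were tested, against 2 of 8 calcium- or sodium-activated pore subunits, 6 of 16 inward rectifiers, 6 of 15 two-pore-domain channels and 8 of 16 auxiliary subunits. The median control level of the tested members was 1.03 CPM, while that of all 15150 tested genes was 22.5 CPM.

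Levels between genes were compared per kilobase of the annotated canonical transcript. *KCNK1*, which encodes the weakly rectifying leak channel TWIK1, had the highest level, with 43.9 ± 1.54 (SD, n = 2) CPM per kb in control and 51.7 ± 1.31 in sgUSP22 libraries. *KCNN4*, the intermediate-conductance calcium-activated channel, followed with 32.4 ± 1.73 and 33.2 ± 0.948 CPM per kb. These genes together made up 58.7% and 59.5% of the summed level of all tested members in the control libraries and 64.8% and 65.7% in the sgUSP22 libraries. Next came *KCNAB2*, an auxiliary subunit with an aldo-keto reductase fold, at 13.4 ± 1.06 and 10.8 ± 0.0337 CPM per kb, and *KCNG1*, a silent subunit, at 12.0 ± 0.216 and 6.45 ± 0.450 CPM per kb. In control libraries the ranges of *KCNAB2* and *KCNG1* did not meet, but they lay within 1.5-fold of each other. The inward rectifier *KCNJ12* (4.80 ± 0.153 and 5.22 ± 0.00578 CPM per kb) and the Shaw-type channel *KCNC4* (4.43 ± 0.00317 and 4.55 ± 0.160 CPM per kb) completed the 6 members of highest level. The summed level over tested members stayed between 128 and 132 CPM per kb in the 4 libraries.

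**Figure D1:**
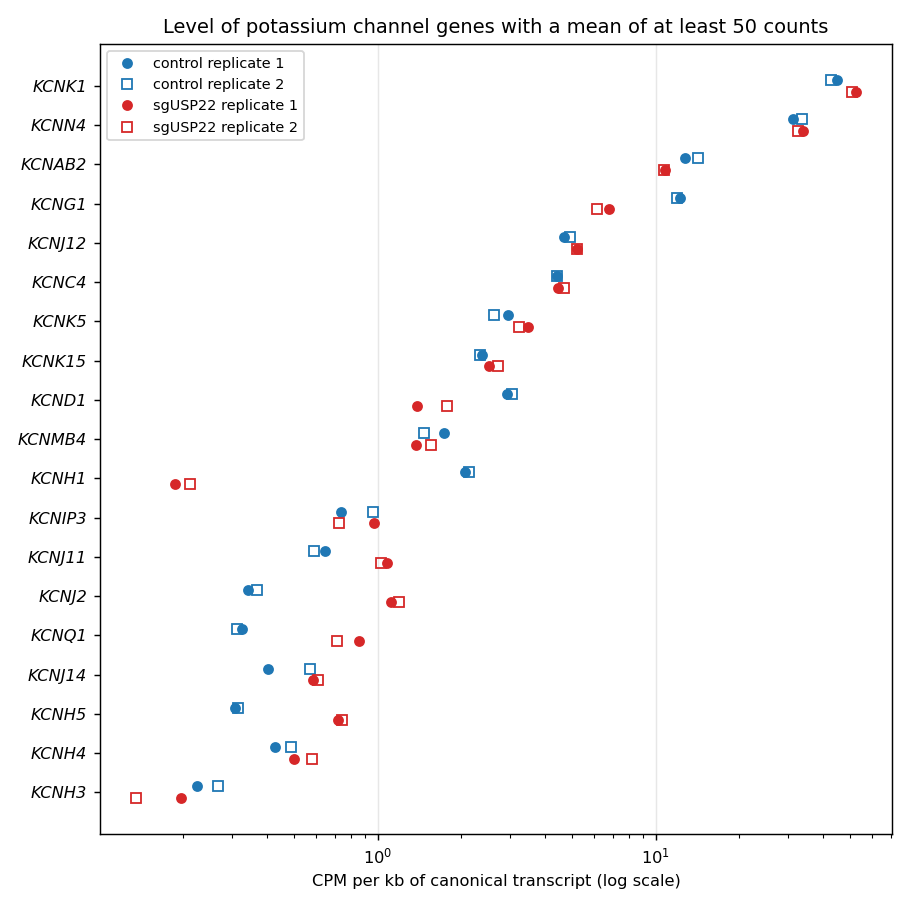
Level of 19 of the 20 tested potassium channel genes with a mean of at least 50 counts, in CPM per kb of canonical transcript on a log axis, with 1 symbol per library and the genes ordered by mean level. *KCNK1* and *KCNN4* stand above the rest in all 4 libraries, and *KCNH1* shows the widest gap between control and sgUSP22 libraries.

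A few members were called, in both directions. Calls required an adjusted p under 0.05 together with a change of 1.5-fold or more. By this measure, 6 of the 37 tested members were called higher in sgUSP22 libraries, or 16.2%, and 3 were called lower, or 8.11%. The higher calls include *KCNV1*, which passed the count filter through its sgUSP22 libraries. *KCNF1*, with counts in control libraries only, was left below the filter. Among all tested genes, 8.88% were called higher and 7.25% lower. With the adjusted p-value alone, 7 members were higher and 4 lower, or 18.9% and 10.8%, where 26.8% and 25.8% of all tested genes were. Both sgUSP22 libraries lay above both control libraries for 19 members, or 51.4%, and below them for 6, or 16.2%, against 38.3% and 37.6% of all tested genes. The median log2 fold change was 0.16 over the tested members and 0.00091 over all tested genes. The 9 called genes were *KCNV1*, *KCNK3*, *KCNJ2*, *KCNQ1*, *KCNH5* and *KCNJ11* on the higher side, and *KCNH1*, *KCND1* and *KCNG1* on the lower side.

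Among the voltage-gated pore subunits, 3 of 15 tested genes rose and 3 fell. *KCNH1* encodes EAG1, an ether-à-go-go channel best known from brain and from tumour cells. It had 1025 and 1086 counts in control and 100 and 111 counts in sgUSP22 libraries. This was the largest fall of any tested member, 10.5-fold, and the fitted log2 value was -3.40 (standard error 0.13, edgeR adjusted p = 5.47e-08). Its nearest relative, *KCNH5*, which encodes EAG2, went the other way. It had 212 and 222 counts in control and 536 and 540 counts in sgUSP22 libraries, 2.35-fold higher (log2 fold change 1.23, standard error 0.13, edgeR adjusted p = 3.69e-05). Per kilobase, the order of this pair changed sides: *KCNH1* stood at 2.10 ± 0.0519 (SD, n = 2) and *KCNH5* at 0.312 ± 0.00512 CPM per kb in control, and at 0.199 ± 0.0172 and 0.732 ± 0.0131 CPM per kb in sgUSP22 libraries. The other tested KCNH genes did not pass the test, with log2 fold changes of 0.84 for *KCNH2*, 0.24 for *KCNH4* and -0.57 for *KCNH3*.

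In hg38, *KCNH1* spans 210676823 to 211134165 of chromosome 1, minus strand. The transcript *KCNH1-IT1*, which lies within an intron of the gene and is no member, had 85 and 72 counts in control and 11 and 8 counts in sgUSP22 libraries, a log2 fold change of -3.11. Both lie on the minus strand, so that strand could not separate reads of *KCNH1-IT1* from intronic reads of *KCNH1*. Exons of *KCNH1* also share 2018 bases with the pseudogene *IPO8P1* and 387 bases with an unnamed protein-coding gene, both on the same strand. A further 3618 bases are shared with an unnamed gene on the opposite strand. None of these overlapping genes is listed among the counted genes. For overlapping transcripts on opposite strands, reads cannot be told apart without a stated strand setting. The promoters of *KCNH1*, *KCND1* and *KCNK3* are shown because these called genes, 2 that fell and 1 that rose, have a RefSeq start at or next to the start of the GENCODE gene model. They are the 250 bases before the RefSeq start (GRCh38.p14), at chr1:211134149-211134398 on the minus strand, chrX:48971845-48972094 on the minus strand and chr2:26692472-26692721 on the plus strand, with GC boxes (GGGCGG on either strand) in capitals.
KCNH1: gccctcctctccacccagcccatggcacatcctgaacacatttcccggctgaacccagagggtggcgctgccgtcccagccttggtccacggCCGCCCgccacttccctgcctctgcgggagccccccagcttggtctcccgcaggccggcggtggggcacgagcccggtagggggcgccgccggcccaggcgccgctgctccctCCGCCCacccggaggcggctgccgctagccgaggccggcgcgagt
KCND1: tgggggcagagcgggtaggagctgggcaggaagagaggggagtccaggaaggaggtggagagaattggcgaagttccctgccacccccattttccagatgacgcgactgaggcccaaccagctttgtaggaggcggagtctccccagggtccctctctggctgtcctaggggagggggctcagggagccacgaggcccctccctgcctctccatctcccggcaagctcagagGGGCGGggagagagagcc
KCNK3: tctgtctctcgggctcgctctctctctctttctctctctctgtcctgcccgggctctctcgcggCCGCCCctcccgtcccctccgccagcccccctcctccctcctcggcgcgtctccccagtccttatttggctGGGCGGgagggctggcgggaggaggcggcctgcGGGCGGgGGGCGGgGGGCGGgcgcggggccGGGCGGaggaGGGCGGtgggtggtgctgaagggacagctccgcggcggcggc
The *KCNH1* window holds 2 GC boxes and 25 CG dinucleotides, that of *KCND1* holds 1 GC box and 8 CG dinucleotides, and that of *KCNK3* holds 7 GC boxes, some of them a single base apart, and 27 CG dinucleotides. All 3 windows lack the letters TATAAA on either strand. Of the 25 tested members found in the RefSeq promoter table, 19 hold a GC box in this window, or 76.0%, as do 65.9% of the 11359 tested genes found there and 9 of 27 members listed at 0, or 33.3%. A median of 20 CG dinucleotides was counted for the tested members and 21 for all tested genes. A match describes the letters and does not show a bound factor.

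*KCND1*, the Kv4.1 subunit of fast-inactivating A-type channels, had 836 and 892 counts in control and 431 and 542 counts in sgUSP22 libraries. It fell by 0.91 on the log2 scale (standard error 0.13, edgeR adjusted p = 0.000252). *KCNG1*, the silent subunit Kv6.1, had 1628 and 1624 counts in control and 973 and 866 counts in sgUSP22 libraries, and fell by 0.90 on the log2 scale (standard error 0.086, edgeR adjusted p = 1.71e-05). Both genes were 1.87-fold lower, and in neither did the groups overlap. Of the KChIP genes, whose products are auxiliary subunits of such channels, *KCNIP3* had 130, 174, 184 and 135 counts, *KCNIP2* had at most 23 counts in any library, and *KCNIP1* was listed at 0. The further A-type partners *DPP6* and *DPP10* were also listed at 0. *KCNIP3* had a log2 fold change of -0.01 (95% interval -0.53 to 0.51).

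*KCNQ1* encodes the slow delayed rectifier Kv7.1 of heart and epithelia. It had 64 and 63 counts in control and 181 and 149 counts in sgUSP22 libraries, 2.46-fold higher (log2 fold change 1.30, standard error 0.24, edgeR adjusted p = 0.00121). Of the KCNE genes, whose products are auxiliary subunits of Kv7.1, *KCNE5* had 22, 17, 26 and 20 counts, *KCNE1* had at most 6, *KCNE2* at most 14, and *KCNE3* was listed at 0. Per kilobase, *KCNE5* stood at 0.215 and *KCNQ1* at 0.319 CPM per kb in control, and at 0.239 and 0.785 CPM per kb in sgUSP22 libraries. The antisense transcript *KCNQ1OT1*, whose exons overlap those of *KCNQ1*, had at most 3 counts in any library.

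*KCNV1*, the silent subunit Kv8.1, had 8 and 11 counts in control and 37 and 96 counts in sgUSP22 libraries. This 6.59-fold rise was the highest of the tested members (log2 fold change 2.72, standard error 0.58, edgeR adjusted p = 0.00288), but the sgUSP22 libraries differed more from each other than in any other called member. Without sgUSP22 replicate 2 it was no longer called (log2 fold change 1.86, adjusted p = 0.0751). It passed the count filter through its sgUSP22 libraries. The same holds for *KCNV2*, the silent subunit Kv8.2 of the retina, which had 0 and 5 counts in control and 15 and 12 counts in sgUSP22 libraries and did not pass the test (adjusted p = 0.108). *KCNG3* and *KCNS3*, further silent subunits, had log2 fold changes of -0.12 and -0.45 with intervals that included 0. *KCNF1*, the silent subunit Kv5.1, had 7 and 17 counts in control and was listed at 0 in both sgUSP22 libraries, which left it below the filter. It was called lower by DESeq2 (adjusted p = 0.0159) and by edgeR with no filter (adjusted p = 0.0495). *KCNB2*, which encodes a partner of these silent subunits, was listed at 0 in every library. *KCNC4*, of higher level, had a log2 fold change of 0.04 (95% interval -0.14 to 0.22).

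**Figure D2:**
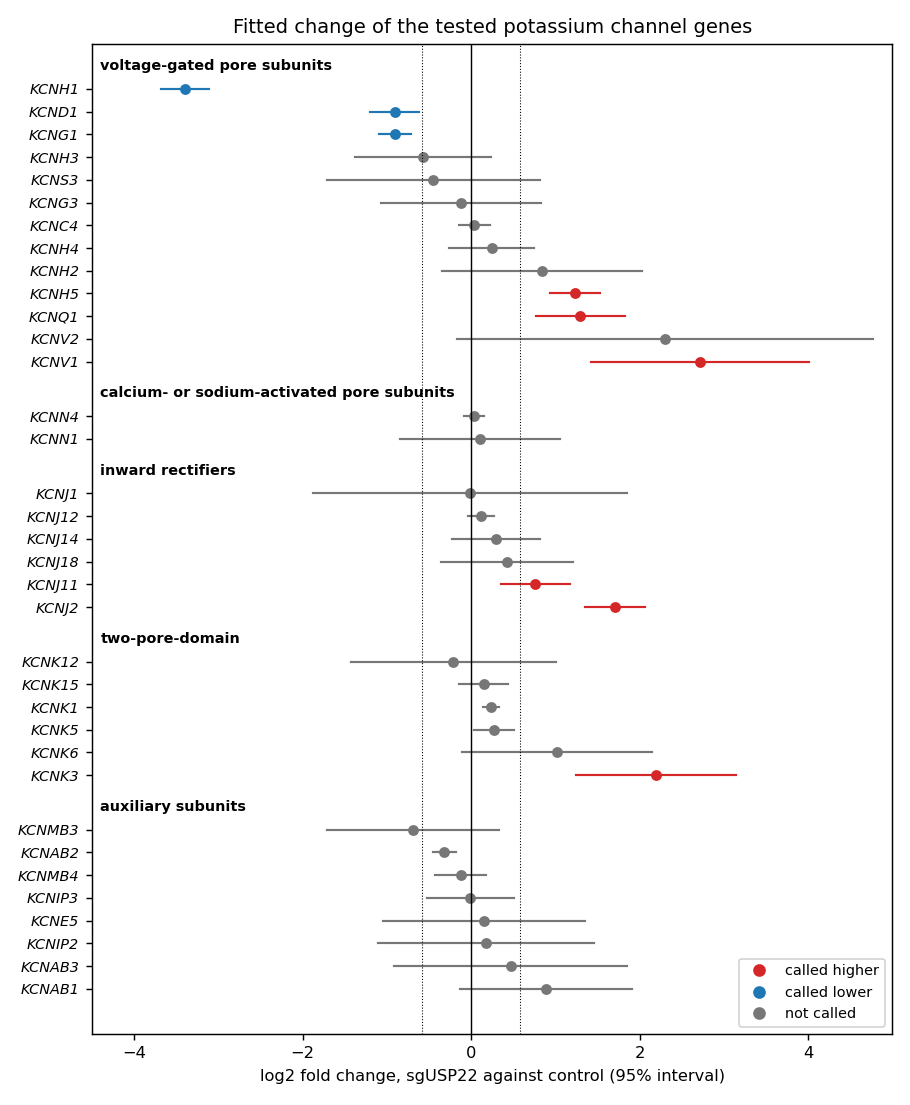
Fitted log2 fold change of 35 of the 37 tested potassium channel genes with 95% intervals, grouped by channel type, with dotted lines at a fold change of 1.5 in either direction. All 3 genes called lower are voltage-gated pore subunits, of which 15 were tested. The auxiliary and calcium-activated groups, with 8 and 2 genes tested, hold no called gene. Among all tested genes 8.88% were called higher and 7.25% lower, and groups of this size cannot be compared with those shares.

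Of the 6 inward rectifiers tested, 2 rose and 0 fell, where 8.88% of all tested genes were called higher and 7.25% lower. A group of 6 genes cannot be compared with those shares. *KCNJ2* encodes Kir2.1, the classical strong inward rectifier that holds the resting potential near that of potassium. It had 112 and 124 counts in control and 397 and 416 counts in sgUSP22 libraries, 3.26-fold higher (log2 fold change 1.71, standard error 0.16, edgeR adjusted p = 1.58e-05). The Kir2.2 gene *KCNJ12*, the most abundant inward rectifier, did not pass the test, with 1507, 1613, 1803 and 1774 counts and a log2 fold change of 0.12 (95% interval -0.04 to 0.28). *KCNJ12* stood at 4.80 and *KCNJ2* at 0.355 CPM per kb in control, and at 5.22 and 1.16 CPM per kb in sgUSP22 libraries. *KCNJ18*, which is nearly identical to *KCNJ12* and may share reads with it, had 36, 45, 60 and 55 counts, so that the split between this pair is uncertain. *KCNJ14* had a log2 fold change of 0.29 and *KCNJ1*, the kidney channel ROMK, of -0.01, both with intervals that included 0.

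*KCNJ11* encodes Kir6.2, the pore of the ATP-sensitive potassium channel, which opens when ATP falls and needs a sulfonylurea receptor to reach the membrane. It had 135 and 126 counts in control and 242 and 226 counts in sgUSP22 libraries, 1.70-fold higher (log2 fold change 0.76, standard error 0.18, edgeR adjusted p = 0.00556). It was the called member nearest to the fold change threshold. *ABCC8*, which encodes the receptor SUR1, was listed at 0 in both control libraries and had 20 and 35 counts in the sgUSP22 libraries. With 3 counts set in each control library the ratio would be 8.70-fold. This is no firm lower bound, since counts derived from coverage need not step in single reads. *ABCC8* was called by edgeR (adjusted p = 0.00151), although it passed the count filter only through its sgUSP22 libraries. The genes are neighbours on the minus strand of chromosome 11, *KCNJ11* from 17365172 to 17389331 and *ABCC8* from 17392498 to 17476894, 3166 bases apart. The alternative receptor gene *ABCC9* had 9 and 0 counts in control and 10 and 24 counts in sgUSP22 libraries and was not tested, and *KCNJ8*, the pore Kir6.1, had at most 4 counts.

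Among the 6 two-pore-domain channels tested, 1 was called higher, or 16.7%, against 8.88% of all tested genes. *KCNK3* encodes the acid-sensitive leak channel TASK1. It had 11 and 21 counts in control and 84 and 71 counts in sgUSP22 libraries, 4.57-fold higher (log2 fold change 2.19, standard error 0.42, edgeR adjusted p = 0.00169). Its control level was low, and the 95% interval of its log2 fold change ran from 1.24 to 3.14. Its relative *KCNK9*, the pore TASK3, had at most 7 counts, and *KCNK15* had 365, 365, 414 and 440 counts with a log2 fold change of 0.15 (95% interval -0.14 to 0.43). *KCNK1* had 5648 and 5499 counts in control and 7132 and 6759 in sgUSP22 libraries. Its log2 fold change of 0.24 passed the adjusted p threshold (edgeR adjusted p = 0.00119) but not the fold change threshold. *KCNK5* (log2 fold change 0.27, adjusted p = 0.0561) and *KCNK6* (log2 fold change 1.02, adjusted p = 0.118) did not pass the test, although both sgUSP22 libraries lay above both control libraries in each.

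None of the 2 calcium-activated pore subunits and 8 auxiliary subunits tested was called. Among all tested genes 8.88% were called higher and 7.25% lower, and groups of 2 and 8 genes cannot be compared with those shares. *KCNN4* had 3723 and 4107 counts in control and 4356 and 4110 counts in sgUSP22 libraries, and its log2 fold change of 0.03 had a 95% interval from -0.08 to 0.15, inside the 1.5-fold threshold in both directions. *KCNN1*, a small-conductance relative, had between 27 and 46 counts. The large-conductance channel gene *KCNMA1* had at most 8 counts. *KCNAB2* had 3231 and 3695 counts in control and 2959 and 2894 counts in sgUSP22 libraries, and its log2 fold change of -0.32 passed the adjusted p threshold (edgeR adjusted p = 0.00152) but not the fold change threshold. *KCNMB4*, an auxiliary subunit of the large-conductance channel, had a log2 fold change of -0.12 (95% interval -0.43 to 0.18). *KCNMB3*, *KCNAB1*, *KCNAB3*, *KCNIP2* and *KCNE5* had log2 fold changes from -0.69 to 0.89 with intervals that included 0, and *KCNMB3* shares 3403 exonic bases with *PIK3CA* on the opposite strand.

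The called members were spread over 8 chromosomes. Tested genes within 1 Mb of each called member had median log2 fold changes between -0.10 around *KCNH1* and 0.41 around *KCNJ2*, where only 3 neighbours were tested. All these medians lay inside the 1.5-fold threshold. Called members pass it by rule, so that a larger change of the member was fixed by the call. Around *KCNH1*, 3 of 16 neighbours were called lower and 0 higher, namely *SERTAD4-AS1*, *HHAT* and the intronic *KCNH1-IT1*. Around *KCNJ11*, 3 of 16 were called higher, *ABCC8* among them, and 1 lower. Around *KCNK3*, 41 neighbours had a median of -0.07, and around *KCNQ1*, 31 had a median of -0.04. *KCNH5* lay among 9 neighbours with a median of 0.30. On the long arm of chromosome 10, *KCNIP2* had a log2 fold change of 0.17 (95% interval -1.11 to 1.45) among 35 neighbours with a median of -0.46, of which 12 were called lower. The other members there, *KCNMA1* and *KCNK18*, were not tested.

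Other genes of potassium handling were read from the same fit, from a list of 62 pumps, cotransporters, channel partners and regulators, of which 41 were tested. Of these, 5 were called higher (12.2%) and 2 lower (4.88%), and with the adjusted p-value alone 15 were higher (36.6%) and 11 lower (26.8%), where 26.8% and 25.8% of all tested genes were. The Na,K-ATPase, which builds the potassium gradient, held none of the called genes: *ATP1B1* had a log2 fold change of 0.05 (95% interval -0.03 to 0.13) and *ATP1B3* of 0.29 (adjusted p = 7.55e-05), under the 1.5-fold threshold. Cation-chloride cotransporter genes were among those called higher. *SLC12A7*, the potassium-chloride cotransporter KCC4, had 426 and 403 counts in control and 1060 and 1050 counts in sgUSP22 libraries, 2.41-fold higher (adjusted p = 5.97e-06). *SLC12A3*, a sodium-chloride cotransporter, was 1.67-fold higher (adjusted p = 1.2e-06), while *SLC12A4*, the KCC1 gene, had a log2 fold change of -0.09 (95% interval -0.20 to 0.03). *AKAP9*, an anchoring protein that binds KCNQ1 channels, was 1.62-fold higher. On the lower side, *HCN2*, a hyperpolarisation-activated cation channel related to the KCNH family, had 1928 and 2026 counts in control and 1087 and 1096 counts in sgUSP22 libraries (log2 fold change -0.94, adjusted p = 4.98e-06). *TMEM38A*, a cation channel of the endoplasmic reticulum, had a log2 fold change of -0.59 and lay just past the threshold. After the removal of GC and length trends, 2 of the 5 higher calls were lost, with *AKAP9* among them (log2 fold change 0.34). On the lower side *TMEM38A* was no longer called (-0.47), and *LRRC8C* was (-0.84). *TMEM38A* was also not called without control replicate 2 (-0.51) or without sgUSP22 replicate 2 (-0.49).

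The LRRC8 genes, whose products form the volume-regulated anion channel, moved in opposite directions below the fold change threshold. *LRRC8D*, *LRRC8E* and *LRRC8B* had log2 fold changes of 0.45, 0.46 and 0.34, while *LRRC8A*, the obligatory subunit, had -0.38 and *LRRC8C* -0.54, and all 5 passed the adjusted p threshold. *SGK1*, a kinase that raises the surface level of several channels, had a fold change of 1.49 (adjusted p = 8.73e-07), just outside the threshold. *REST*, the repressor of neuronal genes, potassium channel genes among them, had a log2 fold change of 0.30 (adjusted p = 0.000677).

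Potassium channel transcripts differed from the table as a whole in composition. The canonical transcripts of the tested members had a median length of 3783 bases and a median GC content of 58.9%, against 3113 bases and 48.9% over all tested genes. When trends with GC content and length were removed from each library, all 9 called members were still called. The log2 fold change of *KCNH5*, whose transcript has a GC content of 37.5%, went from 1.23 to 0.88, and that of *KCNG1*, at 66.1%, from -0.90 to -0.65. *KCNN4* had in that fit a log2 fold change of 0.25 (adjusted p = 0.00166) in place of 0.03.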

How the data were processed

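RNA-seq of 4 libraries labelled HepG2, 2 per group, was analysed. The authors aligned reads to hg38 with HISAT2 (2.2.1) and deposited gene counts from StringTie (2.2.1) as whole numbers, not scaled to library size. The annotation and strand setting are not given in the sources used here. The Sorafenib dose was taken from the methods of the study and the time from the labels. All 4 columns were matched to samples by name, with 0 left over.

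Counts were fitted in R 4.3.3 with edgeR 4.0.16 (TMM, filterByExpr with a minimum count of 10, quasi-likelihood F test) over 15150 genes, with Benjamini-Hochberg adjustment. Genes were called at an adjusted p under 0.05 together with a change of 1.5-fold or more. Standard errors are the log2 fold change over the square root of F. CPM used TMM-scaled library sizes. Positions, lengths and GC content came from GENCODE v44 for 25900 of 28278 symbols, among them 95.5% of tested genes. DESeq2 1.42.0 was an alternative. The procedures were tested on simulated counts. The mean chi-square per gene between replicates was 7.91 in control and 8.44 in sgUSP22 libraries. This is more than sampling noise would give if each count were a single independent read. Counts from coverage need not be, so that the excess over sampling noise is uncertain. Called members, the 6 of highest level, members near the threshold and called partner genes were named, as were non-called tested members, and *KCNF1*, other untested members and non-called partner genes were added after their values were seen. Some members and partner genes are not reported here by name. Members and lists were chosen with earlier results of these data known.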

Additional observations from a re-analysis of the deposited data

How the results depend on the processing

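The counts of 6 potassium channel genes called higher and 3 lower stayed within 1.5 times under the replicate block, GC and length removal, DESeq2, scaling by RLE or by library size alone, omission of the filter or its rise to a mean of 50 counts, the test against 1.5-fold and the adjusted p alone, from 4 to 7 higher and from 2 to 4 lower, and from 5 to 7 and 3 to 4 with a library left out, where the lone library of a group is assumed to vary like the others. *KCNK3* and *KCNV1* were not tested at a mean of at least 50 counts. *KCNJ11* and *KCND1* did not pass the test against 1.5-fold. *KCNF1* was the added lower call under DESeq2, no filter and without control replicate 1, and *KCNV2* the added higher call without control replicate 2. The test against 1.5-fold aside, in 96 of 97 comparisons the 9 called members held their sign and stayed past the threshold for adjusted p, the exception being *KCNV1* without sgUSP22 replicate 2. Of the partner genes, 5 higher and 2 lower, 3 higher were called after GC and length removal, 3 higher and 1 lower by the test against 1.5-fold, 1 lower with library size alone, 15 higher and 11 lower by the adjusted p alone, and from 1 to 3 lower with a library left out.

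Libraries with the same number are not paired (correlation of deviations 0.042 across genes, and no shared batch is named). With the replicate block, 6 potassium channel genes were higher and 3 lower, as without it, and the log2 fold change of *KCNJ1* was 0.054. No other sign turned and only *KCNK5*, under the fold change threshold, moved past the adjusted p threshold.

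Among members that did not pass the test, the sign turned for *KCNIP3* with library size alone (0.043) and after GC and length removal (0.15), and for *KCNJ1* with library size alone (0.038). With a library left out, log2 fold changes ranged from -0.092 to 0.86 for *KCNAB3*, from -0.043 to 0.37 for *KCNE5*, from -0.46 to 0.33 for *KCNG3*, from -0.19 to 0.66 for *KCNIP2*, from -0.25 to 0.20 for *KCNIP3*, from -0.67 to 1.06 for *KCNJ1*, from -0.63 to 0.11 for *KCNK12*, from -0.21 to 0.52 for *KCNN1*, from -0.020 to 0.090 for *KCNN4* and from -1.40 to 0.11 for *KCNS3*. The cause was not tested. Of the 17 tested members with a mean under 50 counts 2 were called, against 7 of the other 20, and the part of depth in this was not tested.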
